A study of Mus musculus with 14 samples.

Results

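Of the 14 libraries of the series, 6 came from Nes-GFP low bone marrow stromal cells (BMSCs) of normal mice, and these 6 were divided by their stromal transcripts. The summed level of 4 genes of the stromal hematopoietic stem cell niche, Cxcl12, Lepr, Kitl and Adipoq, put 2 libraries at the top (replicates 1 and 2, called stroma-rich here), and the other 4 (replicates 3 to 6) are called stroma-poor. The 2 sets are not groups of the study: all 6 libraries carry the same label, and the levels of these 4 genes in these libraries chose the members. For that reason every difference between the 2 sets is given as a description, with no test, and tests were made only in the 8 libraries that the choice did not use. The 4 genes were left out of all counts.

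RNA was sequenced from GFP+ BMSCs of mice with a reporter in which regulatory elements of the nestin gene drive GFP, so that a GFP gate marks reporter activity and not the nestin protein itself. Normal mice received sucrose water as vehicle. The 8 libraries used for comparison were 4 of Nes-GFP low and 2 of Nes-GFP high BMSCs from leukemic iMLL-AF9 mice, which carry rtTA and express the MLL-AF9 fusion once doxycycline is given, and 2 of Nes-GFP high BMSCs from normal mice. The methods of the study describe young adult mice of either sex and cells negative for CD45, CD31, Ter119 and DAPI, while the labels list lysis of red cells and a gate with GFP, CD45, CD31 and DAPI in which Ter119 is not named. A library stands for 1 mouse or for a pool of 2 mice, which is not stated for each, and nothing says that all replicates were separate mice, so that p-values measure only the spread between these samples, which may be technical. Totals of the 6 libraries ranged from 8552218 to 11436652 counts, with 19045 to 20197 genes detected in each.

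In the bone marrow, CXCL12-abundant reticular (CAR) cells that carry the leptin receptor surround the sinusoids and give hematopoietic stem and progenitor cells the chemokine CXCL12, stem cell factor and adhesion molecules. The same cells hold adipogenic and osteogenic programs, and they lie among a great excess of maturing granulocytes, monocytes and erythroblasts. In bulk samples, fewer cells of a type and less RNA per cell cannot be told apart.

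The 4 genes stood clearly apart in replicates 1 and 2. Cxcl12, the chemokine that retains stem cells, was at 37119 and 38243 CPM (CPM, the count scaled to a common library total) in the stroma-rich and at 2393, 5987, 3332 and 11608 CPM in the stroma-poor libraries. Lepr, the leptin receptor, was at 1642 and 1864 CPM against 82.3, 140.2, 167 and 474 CPM. Kitl, stem cell factor, had 728 and 738 CPM in replicates 1 and 2 and 42.5, 94.7, 73.6 and 243 CPM in replicates 3 to 6. All 3 genes were highest in the same pair, and among the stroma-poor libraries replicate 6 came next for each. Adipoq, the adipokine adiponectin, had 5312 and 4264 CPM in replicates 1 and 2 and 129, 416, 323 and 868 CPM in replicates 3 to 6. Their sum was 44801 and 45108 CPM in replicates 1 and 2, or 4.48% and 4.51% of all counts, and 2647, 6637, 3896 and 13193 CPM in replicates 3 to 6. Replicate 1 stood just inside and replicate 6 just outside the limit, 3.40-fold apart.

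A gene was counted as separated if both stroma-rich libraries lay above, or both below, all 4 stroma-poor libraries and if the means of log2(CPM + 1) differed by at least 2, a 4-fold difference on that scale, which understates the change of genes with low levels. Among 12573 genes whose mean level reached 5 CPM, 775 were higher (6.16%) and 884 lower (7.03%) in the stroma-rich libraries. Since the libraries were chosen on this contrast, nothing is read from these shares. The median difference over all 12573 genes was -0.22. With TMM scaling, which shifted all genes by 0.279 (log2, stroma-rich minus stroma-poor), 60.0% of separated genes were higher in place of 46.7%, and with DESeq2 size factors 62.1%. Without replicate 2, which leaves 1 stroma-rich library, 1202 genes were higher and 1816 lower.

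**Figure D1:**
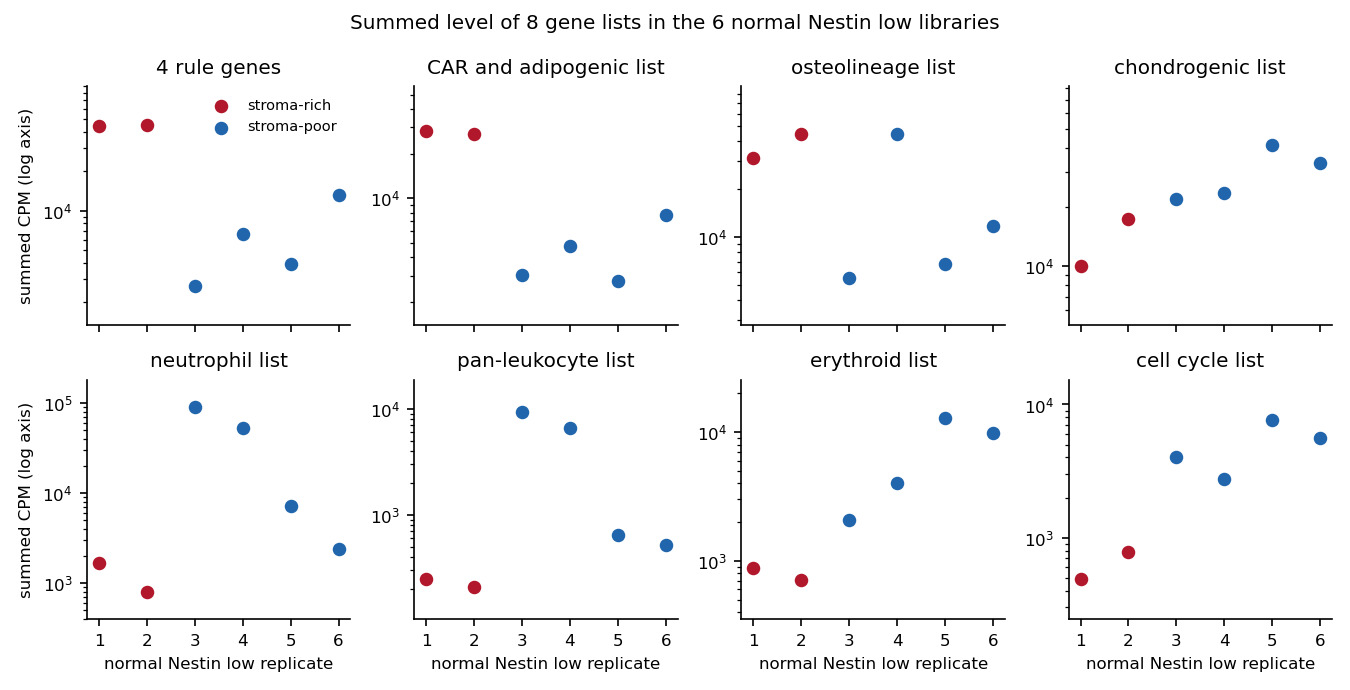
Summed CPM (log axis) of 8 gene lists in each of the 6 normal Nestin low libraries, 1 point per library, red for the 2 stroma-rich and blue for the 4 stroma-poor libraries. The CAR and adipogenic list is highest in replicates 1 and 2 (27023 CPM or more), the neutrophil list in replicates 3 and 4 (53123 CPM or more), and the erythroid and cell cycle lists in replicates 5 and 6.

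Transcripts of niche factors and of the CAR and adipogenic program were higher in the stroma-rich libraries. Of 13 niche factor genes whose mean level reached 5 CPM, 8 were separated as higher and 0 as lower, with a median difference of 2.45. The shares over all 12573 genes were 6.16% higher and 7.03% lower. Vcam1 (ENSMUSG00000027962, chromosome 3 from 116109949 to 116129688 of GRCm38), the adhesion molecule that holds progenitors to stroma, was at 1711 and 1709.8 CPM in replicates 1 and 2 and 111, 230.1, 162 and 297 CPM in replicates 3 to 6, a difference of 3.18. The 2 stroma-rich libraries were nearly equal, and each held more than every stroma-poor one. Bmp4, a bone morphogenetic protein, was at 399 and 429.6 CPM in replicates 1 and 2 and 33, 53.6, 12 and 19.4 CPM in replicates 3 to 6 (difference 3.97). Fgf7, a growth factor for epithelia, had 352 and 231 CPM in replicates 1 and 2 and 12.6, 60.5, 28.4 and 67.9 CPM in replicates 3 to 6 (difference 2.99). Il34, a ligand of the receptor CSF1R, showed 270.0 and 189 CPM in replicates 1 and 2 and 18.4, 51.6, 1.46 and 49.8 CPM in replicates 3 to 6 (difference 3.58). Bmp4 and Il34 were lowest in replicate 5, whereas Vcam1 and Fgf7 were lowest in replicate 3. The cytokine Csf1, which supports monocytes and macrophages, was at 518 and 485 CPM in replicates 1 and 2 and 79, 166, 28.3 and 181 CPM in replicates 3 to 6, and this too was a clear gap. Il7, which B lymphocyte precursors need, was above all stroma-poor libraries as well, with 71.5 and 95 CPM against 5.15, 38.4, 28.1 and 35.5 CPM, but its difference of 1.89 was under the limit. Csf1 and Il7 were singled out after their values were seen.

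In the list of CAR and adipogenic genes, 15 of 18 were separated as higher and 0 as lower, against 6.16% and 7.03% of all genes. The median difference was 2.98, and all 18 had a difference above 0. Pparg (ENSMUSG00000000440, chromosome 6 from 115360951 to 115490399), the nuclear receptor that drives fat cell formation, was at 106 and 110.3 CPM in replicates 1 and 2 and 1.21, 19.2, 1.01 and 2.81 CPM in replicates 3 to 6, a difference of 4.67. Replicate 4 held several times the Pparg of the other stroma-poor libraries, though still far less than the stroma-rich pair. Lpl, lipoprotein lipase, had 3693 and 3752 CPM in replicates 1 and 2 and 195, 319.8, 256 and 641 CPM in replicates 3 to 6 (difference 3.54). Bmp6, a regulator of iron balance and bone, had 173 and 235 CPM in replicates 1 and 2 and 1.92, 41.2, 11.1 and 56.4 CPM in replicates 3 to 6 (difference 3.57). Pdgfrb, a receptor for platelet-derived growth factor, was at 1032 and 822 CPM in replicates 1 and 2 and 37.6, 178, 20.8 and 350.2 CPM in replicates 3 to 6 (difference 3.43). For these genes the stroma-poor libraries differed a good deal among themselves, and replicate 3 or 5 was the lowest of all 6. The list summed to 28534 and 27023 CPM in the stroma-rich and to 2779 to 7685 CPM in the stroma-poor libraries. Foxc1, a transcription factor of CAR cells that was singled out after its values were seen, was an exception among the named members: it had 117 and 122 CPM in replicates 1 and 2 and 12.1, 40.9, 31.7 and 140.4 CPM in replicates 3 to 6, and replicate 6 overlapped with the stroma-rich pair.

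Bone and mural genes followed the same direction less uniformly. Of 19 osteolineage genes, 7 were separated as higher and 0 as lower, against 6.16% and 7.03% of all genes. Their median difference was 1.68. Bglap, osteocalcin, a protein of mature osteoblasts, was at 2022 and 2171 CPM in replicates 1 and 2 and 100.4, 1138, 285 and 136 CPM in replicates 3 to 6 (difference 3.01). Its close copies Bglap2 and Bglap3 had differences of 2.93 and 2.95, and reads may have been split among the 3 genes, which makes each uncertain. Replicate 4 held about as much RNA of the whole list as the stroma-rich pair did: the sum was 31438 and 44420 CPM in replicates 1 and 2, 44756 CPM in replicate 4 and 5537 to 11798 CPM in the other 3 stroma-poor libraries. Phex, an endopeptidase of osteoblasts and osteocytes, had 215 and 135 CPM in replicates 1 and 2 and 8.48, 28.1, 23 and 2.69 CPM in replicates 3 to 6 (difference 3.78), with no overlap. Of 8 pericyte and smooth muscle genes, 3 were separated as higher, and these were Rgs5, Mylk and Notch3. Notch3, a receptor of mural cells, had 60.8 and 116 CPM in replicates 1 and 2 and 9.69, 14.8, 7.75 and 23.4 CPM in replicates 3 to 6 (difference 2.63). Ndufa4l2, which marks pericytes, ran the other way, at 23.1 and 5.25 CPM in replicates 1 and 2 and 52.1, 55.1, 97.3 and 21.5 CPM in replicates 3 to 6, where replicate 1 and replicate 6 overlapped. Cnn1 had no count in the 6 libraries.

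Matrix genes leaned higher in the stroma-rich pair, with exceptions. Of 27 fibroblast and matrix genes, 5 were separated as higher and 1 as lower, against 6.16% and 7.03% of all 12573 genes. At any size of difference, 11 lay higher and 3 lower without overlap, against 13.2% and 19.9% of all genes. The median difference of the list was 0.57, which was 0.29 without replicate 3 and 0.92 without replicate 4. Igfbp4, a binding protein for insulin-like growth factors, was at 5119 and 4686 CPM in replicates 1 and 2 and 456, 964, 621 and 1220.2 CPM in replicates 3 to 6 (difference 2.69). The fibroblast collagen gene Col14a1 was the member separated as lower, with 0.386 and 0.0874 CPM in replicates 1 and 2 and 34.8, 88.4, 0.561 and 16.7 CPM in replicates 3 to 6 (difference -3.81). It was nearly undetected in replicate 5 as well, so that the stroma-poor libraries were far from alike. Dpt, dermatopontin, had 3.38 and 0.7 CPM in replicates 1 and 2 and 111, 162, 67.5 and 2.22 CPM in replicates 3 to 6, and Pdpn, podoplanin, had 0.482 and 0.437 CPM in replicates 1 and 2 and 34.3, 17.6, 0.225 and 11.6 CPM in replicates 3 to 6. For both, replicates 3 and 4 were high and another stroma-poor library was as low as the stroma-rich pair.

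**Figure D2:**
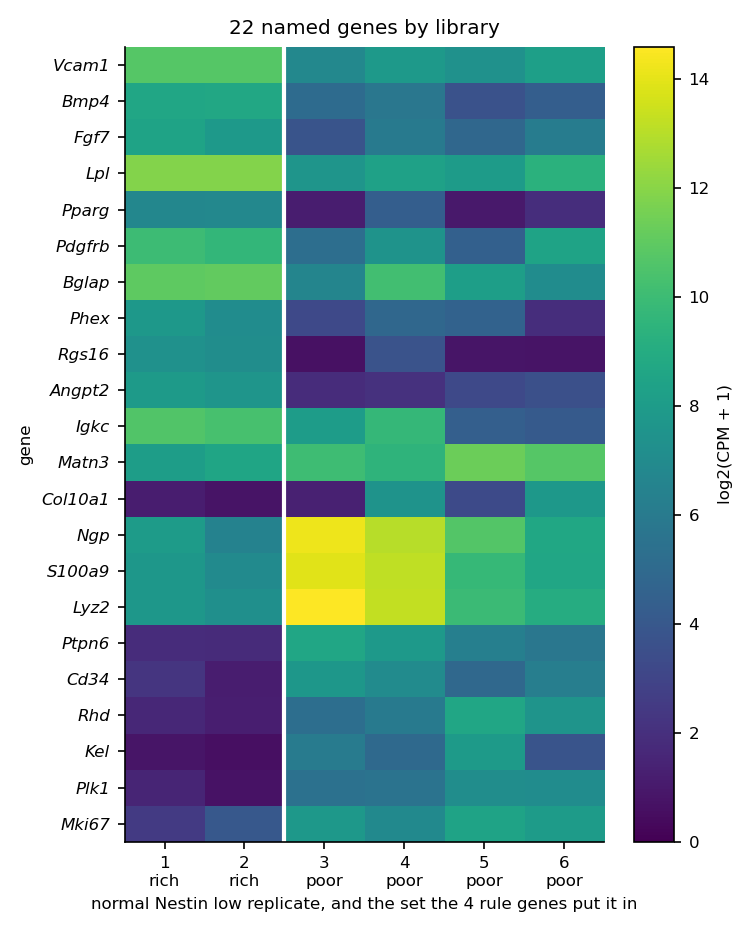
Level of 22 named genes, as log2(CPM + 1) in colour, in the 6 normal Nestin low libraries, with the stroma-rich pair left of the white line. Ngp, S100a9 and Lyz2 are brightest in replicates 3 and 4, and Rhd, Plk1 and Mki67 in replicate 5, where Rhd is at 402 CPM.

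The largest difference of any separated gene was that of Rgs16 (ENSMUSG00000026475, chromosome 1 from 153740349 to 153745468), a regulator of G protein signaling that shortens the response of chemokine and other receptors. It was at 166 and 139.6 CPM in replicates 1 and 2 and 0.606, 12.3, 0.786 and 0.702 CPM in replicates 3 to 6, a difference of 5.76. Only replicate 4 held more than 1 CPM among the stroma-poor libraries. Angpt2, angiopoietin 2, a ligand of the endothelial receptor TIE2, had 248 and 193 CPM in replicates 1 and 2 and 2.62, 3.21, 8.31 and 10.8 CPM in replicates 3 to 6 (difference 5.10). A2m, the protease inhibitor alpha-2-macroglobulin, had 79.9 and 93.6 CPM in replicates 1 and 2 and 1.01, 0.642, 1.68 and 0.585 CPM in replicates 3 to 6 (difference 5.50). The stroma-poor libraries were far lower for all 3 genes. Zfp846 was also among the leading genes outside the immunoglobulins, with 63.6 and 31.6 CPM in replicates 1 and 2 and 0.101, 0.0918, 0.337 and 0.351 CPM in replicates 3 to 6 (difference 5.24). Early B cell factor (EBF) proteins are transcription factors of CAR cells, and the letters CCCNNGGG, the core of the sites they read, were sought in both strands of promoters, taken as the 250 bases before the start sites in RefSeq (GRCm38.p6). They were found in 22.4% of the 571 higher genes with a promoter, 18.8% of the 649 lower genes and 18.5% of all 8758 genes. Among stromal lists they were in 3 of 13 CAR and adipogenic, 4 of 9 niche factor, 1 of 13 osteolineage and 0 of 17 fibroblast and matrix genes. Blood cell lists held them too, with 4 of 9 pan-leukocyte, 5 of 19 neutrophil and 4 of 17 erythroid genes. The letters were thus not particular to stromal genes. The promoter of Rgs16, shown because the gene led the higher ones, has 2 matches, in capitals, at -150 and -38 from the start site (chr1:153740103-153740352 on the plus strand).

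Rgs16: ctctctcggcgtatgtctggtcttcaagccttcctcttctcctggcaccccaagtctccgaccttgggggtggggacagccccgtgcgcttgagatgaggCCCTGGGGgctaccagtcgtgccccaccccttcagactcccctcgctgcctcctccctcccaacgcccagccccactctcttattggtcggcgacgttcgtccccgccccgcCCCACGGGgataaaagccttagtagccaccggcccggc

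Immunoglobulin transcripts were higher in the stroma-rich pair, and among the stroma-poor libraries mostly in replicate 4. Igkc (ENSMUSG00000076609, chromosome 6 from 70726435 to 70726966), the constant region of the kappa light chain, was at 1583 and 1312 CPM in replicates 1 and 2 and 265, 849, 20.1 and 16.8 CPM in replicates 3 to 6 (difference 3.91). Jchain, which joins IgM and IgA, had 109.8 and 170.2 CPM in replicates 1 and 2 and 1.21, 44.3, 0.898 and 0.935 CPM in replicates 3 to 6 (difference 4.97). In both, replicate 4 came closest to the stroma-rich pair, and replicates 5 and 6 were lowest or nearly so. Of 22 immunoglobulin variable genes whose mean level reached 5 CPM, 8 were separated as higher. The shares over all 12573 genes were 6.16% higher and 7.03% lower. The mean is taken over all 6 libraries, so that a gene can pass through the stroma-rich pair alone. Igkv14-126 did so, with 39.1 and 39.4 CPM in replicates 1 and 2 and 0.367 CPM at most in replicates 3 to 6. Nothing is read from the count of variable genes. Single variable genes differed between the stroma-rich libraries themselves: Ighv6-6 was at 366 and 5.86 CPM and Igkv17-121 at 20.1 and 356 CPM in replicates 1 and 2. The heavy chain constant gene Ighg2c was mostly found in replicate 1, with 1227 and 66.5 CPM in replicates 1 and 2 and 17, 3.49, 4.27 and 3.98 CPM in replicates 3 to 6. Variable genes share reads with near copies and are uncertain one by one. Cd79b, a part of the B cell receptor, went the other way, at 0.193 and 6.38 CPM in replicates 1 and 2 and 32.4, 15.4, 18.8 and 17.9 CPM in replicates 3 to 6, and of 6 B cell genes 2 were separated as higher (Igkc and Jchain) and 1 as lower (Cd79b). The median difference of the list was 1.63, but -0.17 without replicate 2, 3.42 without replicate 1, 2.66 without replicate 4 and 0.91 without replicate 6. Ighm, the IgM heavy chain, had 199.6 and 1337 CPM in replicates 1 and 2 and 273, 1348, 22.5 and 11.8 CPM in replicates 3 to 6, with replicate 4 as high as replicate 2.

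Stress and interferon genes had smaller differences. Among 26 immediate early genes, 2 were separated as higher and 1 as lower, with a median difference of 0.90. Over all 12573 genes, 6.16% were separated as higher and 7.03% as lower. Nothing is read from the few separated genes of the immediate early and interferon lists. Fos, part of the AP-1 transcription factor, was at 10949 and 10939.7 CPM in replicates 1 and 2 and 2349, 3488, 2208 and 1911 CPM in replicates 3 to 6 (difference 2.17). Socs3, a feedback inhibitor of cytokine signaling, was at 2280.5 and 2221 CPM in replicates 1 and 2 and 367, 419, 400.5 and 388 CPM in replicates 3 to 6 (difference 2.51). Both genes were almost equal in replicates 1 and 2, and the 4 stroma-poor libraries lay close together. Nr4a2, a nuclear receptor, was the one separated as lower, at 18.8 and 10.2 CPM in replicates 1 and 2 and 114, 37.8, 60.2 and 49.5 CPM in replicates 3 to 6. Of 31 interferon-induced genes, 4 were separated as higher and 2 as lower, with a median difference of 0.88. Gbp2, a guanylate-binding protein, had 179.7 and 124 CPM in replicates 1 and 2 and 11.1, 25.2, 19.1 and 59.3 CPM in replicates 3 to 6 (difference 2.59), whereas Trim30a had 0.675 and 7.96 CPM in replicates 1 and 2 and 40.2, 34.6, 66 and 62 CPM in replicates 3 to 6 (difference -3.69). Trim30a was low only in the stroma-rich pair, and Gbp2 was next highest in replicate 6.

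Pan-leukocyte transcripts were lower in the stroma-rich pair, and within the stroma-poor libraries they were mostly found in replicates 3 and 4. Most immunoglobulin transcripts, given above, ran the other way. Of 12 pan-leukocyte genes, 7 were separated as lower and 0 as higher, against 7.03% and 6.16% of all genes. Their median difference was -3.42. The list summed to 246 and 206 CPM in replicates 1 and 2, to 9465 and 6663 CPM in replicates 3 and 4 and to 638 and 511 CPM in replicates 5 and 6. Ptpn6 (ENSMUSG00000004266, chromosome 6 from 124720707 to 124738714), the phosphatase SHP-1 of blood cells, was at 2.6 and 2.54 CPM in replicates 1 and 2 and 389.7, 233, 77.7 and 53.3 CPM in replicates 3 to 6, a difference of -5.30. Cd53, a leukocyte tetraspanin, had 3.18 and 2.8 CPM in replicates 1 and 2 and 284, 298, 24.9 and 24.1 CPM in replicates 3 to 6 (difference -4.44). Vav1, an exchange factor of antigen receptor signaling, had 1.25 and 1.05 CPM in replicates 1 and 2 and 172, 68.8, 57.1 and 23.7 CPM in replicates 3 to 6 (difference -4.91). These genes were low in both stroma-rich libraries and present in all 4 others. Ptprc, the gene of CD45 and so of the gate, did not follow that pattern: it was at 4.34 and 7.43 CPM in replicates 1 and 2 and 474, 483, 5.84 and 4.56 CPM in replicates 3 to 6, so that replicates 5 and 6 were as low as the stroma-rich pair and only replicates 3 and 4 were high. The leading lower genes Ikzf1, Nckap1l and Samsn1, of blood cell transcription, cytoskeleton and signaling, had 188, 90.2, 120.4 and 132 CPM, 147, 105, 45 and 47.9 CPM and 169, 192, 89.7 and 105 CPM in replicates 3 to 6, with 3.32 CPM at most in replicates 1 and 2. Pi16, a peptidase inhibitor that is not taken here as a blood cell gene, was also among the leading lower genes. It was at 2.12 and 2.1 CPM in replicates 1 and 2 and 265, 244, 68.3 and 28.2 CPM in replicates 3 to 6.

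Neutrophil genes had the highest sum of the blood cell lists in replicates 3 and 4, whereas the erythroid sum was above it in replicates 5 and 6 and the B cell sum in replicates 1 and 2. Of 21 neutrophil genes, 11 were separated as lower and 0 as higher, against 7.03% and 6.16% of all genes. Their median difference was -3.80. The list summed to 1690 and 795 CPM in the stroma-rich libraries and to 90954, 53123, 7245 and 2418 CPM in replicates 3 to 6. Ngp (ENSMUSG00000032484, chromosome 9 from 110419747 to 110423012), a neutrophil granule protein, was at 253 and 86.5 CPM in replicates 1 and 2 and 18956, 8137, 1665 and 408 CPM in replicates 3 to 6 (difference -4.42). Lcn2, lipocalin 2, which withholds iron from bacteria, was at 52.7 and 30.6 CPM in replicates 1 and 2 and 5504, 3487, 389 and 200.3 CPM in replicates 3 to 6 (difference -4.75). Ly6g, the surface marker of mature mouse neutrophils, had 0.675 and 1.4 CPM in replicates 1 and 2 and 286, 125, 9.55 and 11.6 CPM in replicates 3 to 6 (difference -4.55). The order of the libraries was the same for Ngp and Lcn2: replicate 3, 4, 5 and 6, followed by the stroma-rich pair. Elane and Mpo, enzymes of primary granules made by immature cells, which were singled out after their values were seen, had another order. Elane was at 10.3 and 14.7 CPM in replicates 1 and 2 and 249.8, 209.9, 316 and 28.1 CPM in replicates 3 to 6 and Mpo at 7.72 and 8.31 CPM in replicates 1 and 2 and 218, 142, 280.2 and 6.55 CPM in replicates 3 to 6, with replicate 5 the highest for both and replicate 6 far below it. Against replicates 3 and 4 alone, the median difference of the neutrophil list was -6.02, with 21 of 21 genes separated as lower, and against replicates 5 and 6 alone it was -1.86, with 6 separated as lower and 1 as higher. Over all genes, 1416 of 12293 were separated as lower against replicates 3 and 4 alone. Against replicates 5 and 6 alone, 1453 of 12281 were lower and 1300 higher.

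The promoters of neutrophil genes often held letters that the granulocyte factors C/EBP and PU.1 read. TTGCNNAA, a pattern that C/EBP factors read, was found in either strand in 8 of 19 neutrophil genes with a promoter (42.1%) and in 9.20% of all 8758 genes. GAGGAAGT, a PU.1 pattern, was found in 7 of the 19 (36.8%) and in 3.12% of all genes. TTGCNNAA was in 8.32% of the 649 lower genes with a promoter and in 12.1% of the 571 higher ones. GAGGAAGT was in 4.01% and 2.63% of these. Each pattern was also found in 3 of 13 osteolineage genes (23.1%). These matches are a description of the letters and not of binding. The promoters of Ngp (chr9:110419558-110419807 on the plus strand) and S100a9 (chr3:90695722-90695971 on the minus strand), which encodes a subunit of calprotectin, are shown because both genes were also among those with the smallest p for the leukocyte sum in other libraries. TTGCNNAA or its reverse complement is in capitals.

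Ngp: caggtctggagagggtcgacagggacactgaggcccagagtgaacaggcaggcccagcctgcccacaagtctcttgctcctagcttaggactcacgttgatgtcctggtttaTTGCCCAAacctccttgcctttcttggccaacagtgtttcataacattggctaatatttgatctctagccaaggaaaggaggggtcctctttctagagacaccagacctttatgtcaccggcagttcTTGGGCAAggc
S100a9: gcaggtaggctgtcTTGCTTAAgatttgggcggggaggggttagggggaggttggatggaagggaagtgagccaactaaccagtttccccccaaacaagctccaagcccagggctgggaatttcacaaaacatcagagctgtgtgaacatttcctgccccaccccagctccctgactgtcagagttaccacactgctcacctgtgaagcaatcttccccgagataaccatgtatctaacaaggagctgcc

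The S100a9 match lies at -236 and the Ngp matches at -138 and -11. S100a9 had 206 and 126 CPM in replicates 1 and 2 and 15846, 9413, 880.1 and 398 CPM in replicates 3 to 6, and thus the same order of libraries as Ngp.

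Monocyte, dendritic and lymphoid genes were less uniform, and few of them were separated. The shares separated over all 12573 genes were 7.03% lower and 6.16% higher. Of 12 monocyte and macrophage genes, 3 were separated as lower (Lyz2, Ctss and Ly86) and 1 as higher, with a median difference of -1.21, which was -0.14 without replicate 3, -2.08 without replicate 5, -3.59 against replicates 3 and 4 alone and 0.77 against replicates 5 and 6 alone. Lyz2, lysozyme, was at 212 and 151 CPM in replicates 1 and 2 and 24557, 9520.2, 989.5 and 529 CPM in replicates 3 to 6 (difference -4.21). Ctss, cathepsin S, had 1.64 and 1.84 CPM in replicates 1 and 2 and 472, 57.8, 12.6 and 14.7 CPM in replicates 3 to 6 (difference -4.17). Both were highest in replicate 3, and Ctss there was several times higher than in any other library. Of 7 genes of dendritic cells and class II antigen presentation, 1 was separated as lower: H2-Ab1, the class II beta chain, had 1.54 and 27.6 CPM in replicates 1 and 2 and 170.4, 30.01, 55 and 36.5 CPM in replicates 3 to 6. The list summed to 1189 CPM in replicate 3 and to 72.0 to 219 CPM in the other stroma-poor libraries, against 56.4 and 123 CPM in the stroma-rich pair. Nkg7, a granule protein of natural killer and T cells, was the 1 of 4 genes of those cells separated as lower, at 0.579 and 0.612 CPM in replicates 1 and 2 and 31, 40.8, 34.7 and 0.819 CPM in replicates 3 to 6. Hdc, histidine decarboxylase of basophils, mast cells and some myeloid cells, was at 3.96 and 10.5 CPM in replicates 1 and 2 and 308, 427, 29.5 and 2.34 CPM in replicates 3 to 6, where replicate 6 was below the stroma-rich pair. Mcpt8, of basophils, and Ccr9 had no count in these libraries.

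Red cell transcripts were also lower in the stroma-rich pair, but their highest levels were in replicates 5 and 6. Of 25 erythroid genes, 15 were separated as lower and 0 as higher, against 7.03% and 6.16% of all genes. Their median difference was -2.73. Against replicates 5 and 6 alone, 21 were separated as lower with a median of -3.72, and against replicates 3 and 4 alone 11 with a median of -1.90. Over all genes, 1453 of 12281 and 1416 of 12293 were separated as lower in these 2 contrasts. The list summed to 882 and 706 CPM in replicates 1 and 2 and to 2082, 4056, 12758 and 9770 CPM in replicates 3 to 6. Rhd (ENSMUSG00000028825, chromosome 4 from 134864536 to 134896172), the Rh blood group protein, had the largest difference of any lower gene, -5.44, with 2.12 and 1.31 CPM in replicates 1 and 2 and 36.8, 63.5, 402 and 188 CPM in replicates 3 to 6. Kel, the Kell blood group protease, was at 0.772 and 0.525 CPM in replicates 1 and 2 and 65.7, 31, 245 and 12.9 CPM in replicates 3 to 6 (difference -4.98). Hemgn, hemogen, a nuclear protein of erythroid cells, had 1.83 and 1.22 CPM in replicates 1 and 2 and 36.9, 51.4, 124 and 146 CPM in replicates 3 to 6 (difference -4.95), and Rhag, the partner of the Rh proteins, had 0.772 and 2.1 CPM in replicates 1 and 2 and 28.9, 109.9, 233 and 52.3 CPM in replicates 3 to 6 (difference -5.10). Every stroma-poor library was above the stroma-rich pair for these 4 genes. The hemoglobin gene Hba-a1 was separated as well, at 112 and 78.8 CPM in replicates 1 and 2 and 225, 441, 712 and 749 CPM in replicates 3 to 6, whereas Alas2, of heme synthesis, had 18.6 and 4.46 CPM in replicates 1 and 2 and 1.92, 20.7, 29.6 and 0.234 CPM in replicates 3 to 6 and the sets overlapped. Hba-a1 and Alas2 were singled out after their values were seen, and Hba-a1 shares reads with its near copy Hba-a2.

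AGATAA, a form of the site that GATA factors read, was found in either strand of the promoter in 7 of 17 erythroid genes with one (41.2%) and in 6.85% of all 8758 genes. It was in 8.32% of the 649 lower genes with a promoter and in 8.06% of the 571 higher ones, nearly the same share. The promoters of Rhd (chr4:134864286-134864535 on the plus strand) and Kel (chr6:41704326-41704575 on the minus strand) are shown because Rhd led the lower genes and Kel is another named erythroid gene with the letters. AGATAA is in capitals, at -43 in Rhd and at -56 in Kel.

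Rhd: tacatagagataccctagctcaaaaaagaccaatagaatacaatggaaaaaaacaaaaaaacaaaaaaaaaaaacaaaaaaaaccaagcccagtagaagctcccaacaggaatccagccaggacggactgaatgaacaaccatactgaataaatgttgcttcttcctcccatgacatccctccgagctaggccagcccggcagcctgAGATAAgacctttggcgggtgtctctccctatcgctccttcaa
Kel: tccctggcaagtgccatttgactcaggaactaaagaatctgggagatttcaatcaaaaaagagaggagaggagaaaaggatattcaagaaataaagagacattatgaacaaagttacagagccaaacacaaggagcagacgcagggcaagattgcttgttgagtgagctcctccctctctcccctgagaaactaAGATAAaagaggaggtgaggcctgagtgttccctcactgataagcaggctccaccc

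Platelet genes were present at low levels. The summed level of progenitor genes was 118 to 122 CPM in the stroma-rich and 284 to 535 CPM in the stroma-poor libraries. Of 8 stem and progenitor genes, 2 were separated as lower and 1 as higher, with a median difference of -1.09, or -0.71 without replicate 5. Nothing is read from so few separated genes, beside 7.03% lower and 6.16% higher over all genes. Cd34, a surface protein of progenitors that endothelial and some stromal cells also make, had 3.76 and 1.22 CPM in replicates 1 and 2 and 208, 131, 29.5 and 73.2 CPM in replicates 3 to 6 (difference -4.77). Myb, a transcription factor of immature blood cells, had 0.579 and 1.31 CPM in replicates 1 and 2 and 49.9, 35.4, 119.6 and 68.2 CPM in replicates 3 to 6 (difference -5.04). Meis1, a homeobox factor, was the member separated as higher, at 19.9 and 16.7 CPM in replicates 1 and 2 and 0.606, 9.73, 2.36 and 0.585 CPM in replicates 3 to 6. Cd34 was highest in replicates 3 and 4 and Myb in replicate 5. Of 4 megakaryocyte genes none was separated. Pf4, platelet factor 4, was found in replicate 6 at 50.7 CPM, with 9.26 and 1.66 CPM in the stroma-rich libraries and 0.22 CPM at most in the other 3.

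The cell cycle list was the one most fully separated. Of 33 genes, 28 were lower in the stroma-rich libraries by the limits used, against 7.03% of all genes. All 33 had a difference below 0, with a median of -3.51. The list summed to 489 and 780 CPM in replicates 1 and 2 and to 4054, 2773, 7674 and 5587 CPM in replicates 3 to 6. Plk1 (ENSMUSG00000030867, chromosome 7 from 122159439 to 122169873), a kinase of mitosis, was at 1.83 and 0.612 CPM in replicates 1 and 2 and 42.4, 46.7, 141 and 137 CPM in replicates 3 to 6 (difference -5.22). Cdc20, which activates the anaphase-promoting complex, had 2.89 and 8.74 CPM in replicates 1 and 2 and 144, 69.3, 290.1 and 237 CPM in replicates 3 to 6 (difference -4.73). Mki67, the Ki-67 protein of dividing cells, had 4.63 and 15.1 CPM in replicates 1 and 2 and 223, 123, 349 and 252 CPM in replicates 3 to 6 (difference -4.54). Replicate 5 was the highest and the stroma-rich pair the lowest for all 3. Ncapd2, a condensin subunit outside the list, was among the leading lower genes, with 0.289 and 0.437 CPM in replicates 1 and 2 and 19.8, 45, 115 and 55.1 CPM in replicates 3 to 6 (difference -5.20), as was Gatm, of creatine synthesis, with 1.83 and 1.84 CPM in replicates 1 and 2 and 56.5, 53.4, 349 and 116 CPM in replicates 3 to 6. The erythroid sum was also highest in replicates 5 and 6 and lowest in the stroma-rich pair, and its part in the cell cycle sum was not tested. Among the stroma-poor libraries the neutrophil and pan-leukocyte sums ran the other way, with their highest values in replicates 3 and 4.

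CCAAT, the letters that the factor NF-Y reads, stood in the promoters of 24 of 28 cell cycle genes with one (85.7%). They stood in 44.1% of the 649 lower genes, in 39.2% of the 571 higher genes and in 40.6% of all 8758 genes. The promoters of Cdc20 (chr4:118437344-118437593 on the minus strand), with matches at -53 and -8, and of Ncapd2 (chr6:125191587-125191836 on the minus strand), with matches at -177, -148 and -48, are shown as 2 examples of genes lower by more than 4 on the log2 scale. CCAAT or ATTGG is in capitals. In the 7 promoters printed, no match of one pattern overlapped a match of another.

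Cdc20: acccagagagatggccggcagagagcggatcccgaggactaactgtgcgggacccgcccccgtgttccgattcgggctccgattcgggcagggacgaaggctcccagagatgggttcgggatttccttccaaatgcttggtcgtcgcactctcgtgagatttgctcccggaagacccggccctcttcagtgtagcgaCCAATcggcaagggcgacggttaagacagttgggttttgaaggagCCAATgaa
Ncapd2: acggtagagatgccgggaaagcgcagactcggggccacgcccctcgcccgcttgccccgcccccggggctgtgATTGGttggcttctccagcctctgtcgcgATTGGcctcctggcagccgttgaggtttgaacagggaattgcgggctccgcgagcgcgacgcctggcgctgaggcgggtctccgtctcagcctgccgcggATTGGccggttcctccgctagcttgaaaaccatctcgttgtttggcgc

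The summed level of cartilage genes was lower in both stroma-rich libraries than in the stroma-poor ones. Of 15 chondrogenic genes, 14 had a difference below 0, 10 lay lower without overlap at any size of difference, and 2 were separated. Over all 12573 genes, 2506 (19.9%) lay lower without overlap. The median difference of the list was -1.32, and -0.80 without replicate 1. Matn3 (ENSMUSG00000020583, chromosome 12 from 8947929 to 8972028), matrilin 3 of the cartilage matrix, was at 275 and 381 CPM in replicates 1 and 2 and 1059, 703, 2495 and 1689.6 CPM in replicates 3 to 6 (difference -2.04). Col10a1, the collagen of hypertrophic chondrocytes, had 1.25 and 0.7 CPM in replicates 1 and 2 and 1.51, 176, 8.87 and 214 CPM in replicates 3 to 6 (difference -3.99). Replicate 5 was highest for Matn3, and for Col10a1 replicates 4 and 6 were, while replicate 3 was barely above the stroma-rich pair. Fmod, fibromodulin, had 378 and 520.0 CPM in replicates 1 and 2 and 1275, 2055, 1634 and 1439 CPM in replicates 3 to 6, below the limit of separation by its difference of -1.83 and yet with no overlap. The list summed to 10008 and 17322 CPM in the stroma-rich and to 21911, 23559, 41122 and 33244 CPM in the stroma-poor libraries. The stroma-poor libraries thus held less CAR and adipogenic RNA and more cartilage RNA.

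Endothelial and glial genes were low throughout. Few were separated, beside 7.03% lower and 6.16% higher over all genes. Pecam1, the gene of CD31 and so of the gate, had 31 and 0.175 CPM in replicates 1 and 2 and 0.404, 0.459, 0.561 and 16.8 CPM in replicates 3 to 6. The endothelial list summed to 216 and 238 CPM in the stroma-rich and to 159 to 301 CPM in the stroma-poor libraries, with 1 of 6 genes, Egfl7, separated as lower. Mbp, myelin basic protein, was the 1 of 3 Schwann cell and glia genes separated as lower, at 23.4 and 0.874 CPM in replicates 1 and 2 and 25.8, 62, 53.7 and 61.6 CPM in replicates 3 to 6, and Erbb3 and Foxd3 of that list had no count. Of 13 genes of the mitochondrial genome none was separated, with a median difference of -0.05, which ranged from -0.20 to 0.15 when 1 library was left out and was 0.23 after TMM scaling and 0.27 with DESeq2 size factors.

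**Figure D3:**
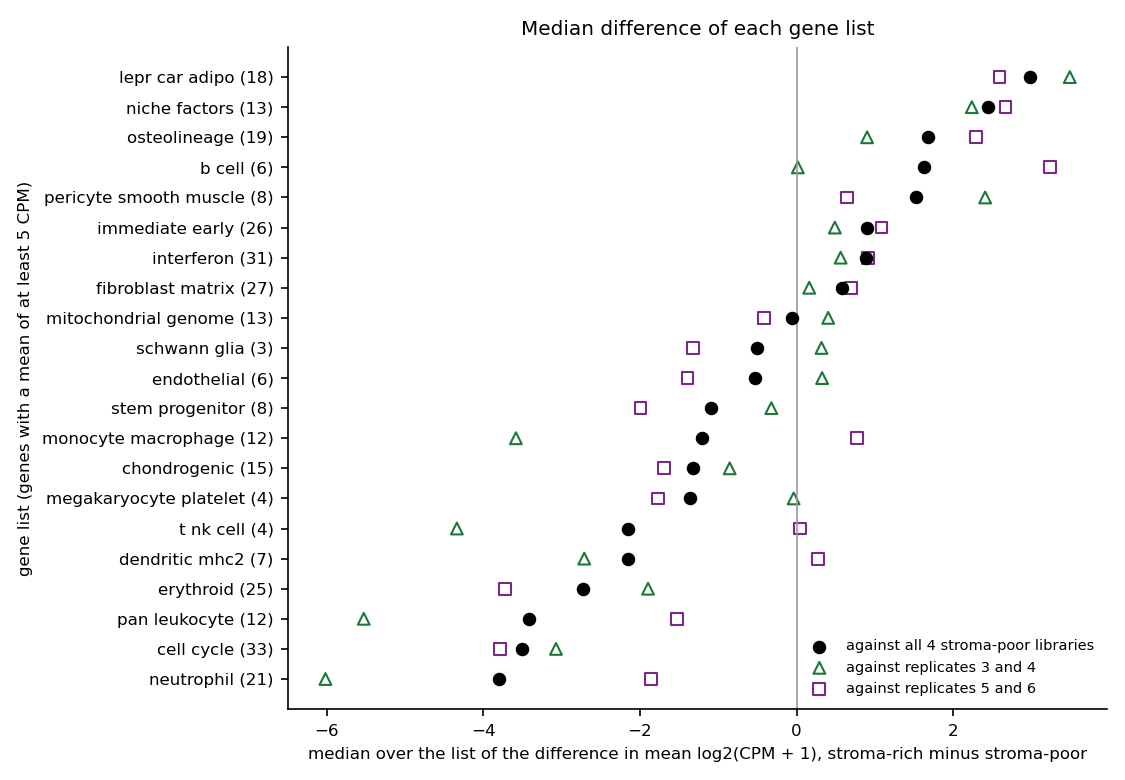
Median over each gene list of the difference in mean log2(CPM + 1), stroma-rich minus stroma-poor, against all 4 stroma-poor libraries (black), against replicates 3 and 4 (green triangles) and against replicates 5 and 6 (purple squares), with the number of genes in brackets. The neutrophil median is -6.02 against replicates 3 and 4 and -1.86 against replicates 5 and 6, and the erythroid median -1.90 and -3.72.

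The libraries fell into pairs also across genes. Across the genes that passed the filter of 5 CPM, the correlation of log2(CPM + 1) was 0.76 between replicates 1 and 2, 0.78 between replicates 3 and 4 and 0.68 between replicates 5 and 6, and 0.48 to 0.63 for all other pairs. These are correlations across genes, which are not independent replicates. No 2 libraries were copies, with a chi-square per degree of freedom of 89.7 or more. Among the 884 lower genes, the highest stroma-poor library was replicate 5 for 40.2%, replicate 3 for 24.2%, replicate 6 for 23.8% and replicate 4 for 11.9%. Among the 775 higher genes, replicate 4 or 6 was the highest stroma-poor library for 35.6% and 34.2%. With 2 stroma-poor libraries left out, a choice made after seeing the data, 1300 genes were higher and 1453 lower against replicates 5 and 6 alone and 989 and 1416 against replicates 3 and 4 alone.

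The genes most like the stromal sum over the 6 libraries, by Pearson's r of log2(CPM + 1) where the mean level reached 50 CPM or more, were H2-K1, Trf, Tmem176a, Cx3cl1, Egfr and Cdh11. All 6 points share the library total, and r is given as a description. H2-K1, a class I antigen, had 3996 and 3758 CPM in replicates 1 and 2 and 1016, 1398, 1102 and 2158 CPM in replicates 3 to 6 (r = 0.996), and its difference of 1.51 was under the limit. Trf, transferrin, which carries iron, had 329 and 278 CPM in replicates 1 and 2 and 18.6, 38.3, 30.5 and 85.2 CPM in replicates 3 to 6 (r = 0.995). Cx3cl1, the chemokine fractalkine, had 723 and 576 CPM in replicates 1 and 2 and 28.8, 89, 38.9 and 194 CPM in replicates 3 to 6 (r = 0.996). The order of the libraries in Trf and Cx3cl1 was that of the sum except within the stroma-rich pair. The genes most like the pan-leukocyte sum were Cybb, Lyz2, S100a9, Lyz1, Retnlg and Slc7a11. Cybb, a subunit of the oxidase of phagocytes, had 54.2 and 41.6 CPM in replicates 1 and 2 and 337, 263, 76.6 and 70.4 CPM in replicates 3 to 6 (r = 0.997), and Retnlg, resistin-like gamma of neutrophils, had 30.3 and 30.3 CPM in replicates 1 and 2 and 1991, 2865, 109 and 80.0 CPM in replicates 3 to 6 (r = 0.992). Slc7a11, the cystine transporter, stood apart from the granule genes by its narrow range, with 38.2 and 39.1 CPM in replicates 1 and 2 and 115, 108, 51 and 55.9 CPM in replicates 3 to 6 (r = 0.992).

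In each group the libraries with the most leukocyte RNA were those low in Xist and high in the Y-linked gene Eif2s3y. Among the other libraries Xist did not follow the leukocyte sum: normal Nestin low replicates 1 and 2 had less of both than replicates 5 and 6. Xist (ENSMUSG00000086503, chromosome X from 103460366 to 103483254), the RNA that silences an X chromosome in females, was at 63.4 and 191 CPM in replicates 1 and 2 and 5.55, 2.66, 317 and 399 CPM in replicates 3 to 6, and Eif2s3y, of the Y chromosome, was at 0.482 and 0.35 CPM in replicates 1 and 2 and 87, 61.8, 1.24 and 0.935 CPM in replicates 3 to 6. Replicates 3 and 4, which were highest in leukocyte RNA, were low in Xist and high in Eif2s3y, and the other 4 libraries were the reverse. In AML Nestin low libraries 1 to 4, Xist was at 322, 2.66, 2.22 and 539.7 CPM and the pan-leukocyte sum at 2023, 4692, 12957 and 1645 CPM, so that again the pair low in Xist held the most. In each group of Nestin high libraries, replicate 1 was low in Xist (5.42 CPM in AML, 1.58 CPM in normal mice) and held more leukocyte RNA (1183 and 2681 CPM) than replicate 2 (382 and 317 CPM). Across the 14 libraries, Xist was between 1.58 and 5.55 CPM in 6 and between 63.4 and 699 CPM in 8. The sex of the mice is not in the labels, and within these groups it cannot be told apart from the leukocyte sum. In the groups used for the tests, the libraries high in Xist also held the higher stromal sums. In AML Nestin low libraries these were 17175 and 4822 CPM against 1544 and 355 CPM. In AML Nestin high libraries they were 29896 against 1486 CPM, and in normal Nestin high libraries 39243 against 7471 CPM. Sex can thus not be told apart from the stromal sum in the tests either. Ddx3y, also of the Y chromosome, was at 88.7 and 104 CPM in replicates 3 and 4 and at 1.12 CPM at most in the other 4, and unlike Eif2s3y it was low in normal Nestin high replicate 1. Eif2s3y and Ddx3y were chosen after their values were seen.

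**Figure D4:**
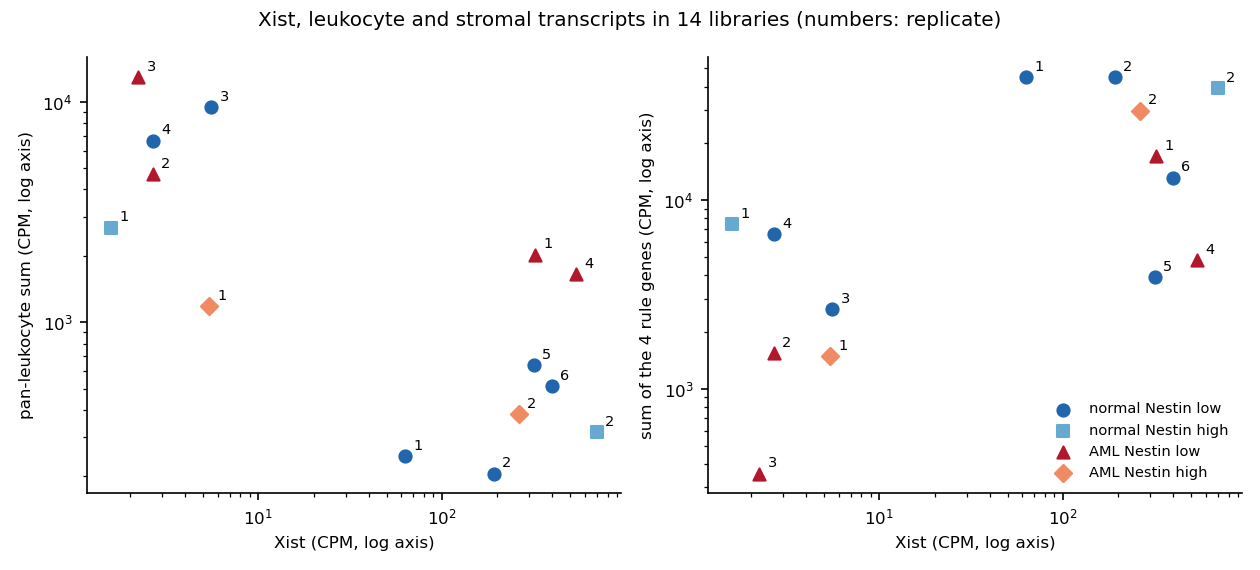
Pan-leukocyte sum (left) and sum of the 4 stromal genes (right) against Xist, all in CPM on log axes, in the 14 libraries, with colour and shape for the group and the replicate number beside each point. In each group the libraries with Xist at 5.55 CPM or less hold the most leukocyte RNA, and in normal Nestin low libraries the stromal sum of replicate 5 (3896 CPM) lies between those of replicates 3 and 4. In the other groups the libraries high in Xist hold the higher stromal sums.

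Whether genes follow the stromal or the leukocyte share was tested in the 8 libraries that the choice did not use. For every gene, edgeR's quasi-likelihood test gave the slope of its log2 level on the log2 sum of the 4 stromal genes within 3 groups (AML Nestin low, AML Nestin high and normal Nestin high), where a slope of 1 means a doubling with each doubling of the sum. The sum ranged from 355 to 17175 CPM in AML Nestin low, from 1486 to 29896 CPM in AML Nestin high and from 7471 to 39243 CPM in normal Nestin high libraries. Of 16423 genes, 0 passed an adjusted p of 0.05 in either direction, and the smallest adjusted p was 0.0647. At an unadjusted p under 0.05, 639 genes had a slope above 0 (3.89%) and 334 below 0 (2.03%), and DESeq2 called 512 and 216 genes at its adjusted p of 0.05. For the leukocyte sum, 0 of 16415 genes passed (smallest adjusted p 0.171), with 455 above 0 (2.77%) and 790 below 0 (4.81%) at an unadjusted p under 0.05, and DESeq2 called 389 and 677. With Xist as a further term, an alternative added after seeing the data, edgeR again called 0 genes, and the counts at an unadjusted p under 0.05 were 433 and 154 for the stromal and 86 and 235 for the leukocyte sum. With both sums in the same fit, edgeR also called 0 genes for either sum. The counts at an unadjusted p under 0.05 were then 478 above and 325 below 0 for the stromal sum. For the leukocyte sum they were 501 and 534.

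Genes higher in the stroma-rich libraries mostly had slopes above 0 on the stromal sum elsewhere. Of the 775 genes, 744 could be fitted, and 634 of them (85.2%) had a slope above 0, against 51.9% of all genes. At an unadjusted p under 0.05, 227 (30.5%) had a slope above 0 and 2 below, against the 3.89% and 2.03% of all genes. On the leukocyte sum, 612 of the 744 had a slope below 0, 237 (31.9%) of them at an unadjusted p under 0.05. Within groups the leukocyte sum mostly fell where the stromal sum rose, and both are shares of the same totals. Slopes on the leukocyte sum are therefore not independent of those on the stromal sum. Both sums also moved with Xist within these groups, as given above. Of the 884 lower genes, 851 could be fitted to the stromal sum and 572 had a slope below 0, with 79 (9.28%) below and 7 above 0 at an unadjusted p under 0.05. On the leukocyte sum, 60.8% of 844 lower genes had a slope above 0, against 43.2% of all genes, and 106 (12.6%) reached an unadjusted p under 0.05 in that direction.

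**Figure D5:**
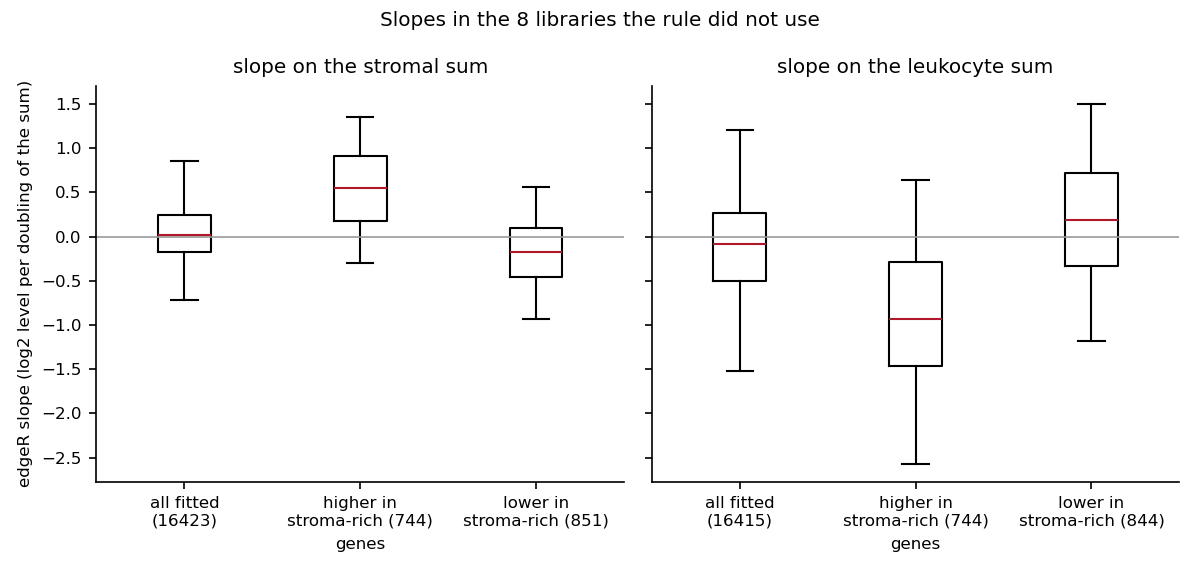
Slopes from edgeR on the stromal sum (left) and the leukocyte sum (right) in the 8 libraries that the choice did not use, for all fitted genes and for genes higher or lower in the stroma-rich libraries (number of genes in brackets), with the median (red line), quartiles (box) and 5th and 95th percentiles (whiskers). The median slope on the stromal sum is 0.015 for all, 0.547 for the higher and -0.177 for the lower genes.

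By gene list, the CAR and adipogenic genes had slopes above 0 on the stromal sum in 18 of 19, with 12 at an unadjusted p under 0.05 and a median slope of 0.846. The niche factors had 13 of 14 above 0, with 7 at that p, and the fibroblast and matrix genes 26 of 27, with 16, although only 5 of that list were separated as higher in the normal Nestin low libraries. Osteolineage genes had 18 of 19 slopes above 0, with 5 at that p. All 12 pan-leukocyte genes had slopes below 0, with 9 at that p, as had 19 of 21 neutrophil genes, with 9. Erythroid genes did not follow this: 11 of 18 had slopes above 0 on the stromal sum and 16 of 18 below 0 on the leukocyte sum, and 0 of 18 had an unadjusted p under 0.05 on the stromal sum. Immediate early genes had slopes below 0 on the stromal sum in 23 of 27, with 2 at that p, while in the normal Nestin low libraries 20 of 26 had a mean difference above 0, 2 of them separated as higher. Chondrogenic genes had 11 of 14 slopes above 0, with 0 at that p, while 14 of 15 had a mean difference below 0 in the normal Nestin low libraries, 2 of them separated as lower. Cell cycle genes had 27 of 33 slopes below 0, with 2 at that p. Of all 16423 genes fitted, 8526 had a slope above 0 on the stromal sum and 7897 below. The shares at that p were 3.89% above and 2.03% below 0. On the leukocyte sum, 7085 of 16415 genes had a slope above 0 and 9330 below. No difference in direction between the normal Nestin low and the other libraries was itself tested.

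The genes with the smallest p for a slope above 0 on the stromal sum were Tnc, Serping1, Kng1, Igfbp5 and Igfbp4, and none passed the threshold. Igfbp5, which binds insulin-like growth factors, was at 4072 and 4083 CPM in replicates 1 and 2 and 131, 499, 447 and 1067 CPM in replicates 3 to 6 in normal Nestin low libraries, and its slope elsewhere was 1.21 (standard error 0.149, adjusted p = 0.0885 from edgeR). Serping1, the C1 inhibitor of complement, was at 7304 and 6807 CPM in replicates 1 and 2 and 761.6, 1523, 658 and 2090.0 CPM in replicates 3 to 6, and its slope was 0.95 (standard error 0.0982, adjusted p = 0.0647 from edgeR). Tnc, the matrix protein tenascin C, had 1224 and 1346 CPM in replicates 1 and 2 and 159, 501, 135 and 520.3 CPM in replicates 3 to 6 and a slope of 1.04 (standard error 0.114, adjusted p = 0.0647 from edgeR). All 3 were higher in both stroma-rich libraries than in the stroma-poor ones, by differences of 3.28, 2.65 and 2.23, and in AML Nestin low libraries 1 to 4 Igfbp5 was at 2890.1, 185, 22.4 and 783 CPM. The smallest p for a slope below 0 came from Lyz2, Cybb, Lcn2, Lyz1 and Chil3. Lcn2 had a slope of -1.10 (standard error 0.178, adjusted p = 0.157 from edgeR), and Lyz2 a slope of -0.93 (standard error 0.135, adjusted p = 0.15 from edgeR).

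On the leukocyte sum, the smallest p for a slope above 0 came from Chil3, Camp, Ngp, S100a9 and I830127L07Rik. Ngp had a slope of 1.49 (standard error 0.21, adjusted p = 0.171 from edgeR). Camp, cathelicidin, had a slope of 1.47 (standard error 0.206, adjusted p = 0.171 from edgeR) and was at 126 and 36.5 CPM in replicates 1 and 2 and 7489.8, 2927, 552 and 221 CPM in replicates 3 to 6 in normal Nestin low libraries, in the order already given for Ngp. The smallest p for a slope below 0 came from Fbn1, Ms4a4d, Xist, Col4a1 and Ebf3. Ebf3, the transcription factor of CAR cells, had a slope of -2.36 (standard error 0.355, adjusted p = 0.171 from edgeR) and was at 133 and 100.1 CPM in replicates 1 and 2 and 4.04, 14, 11.1 and 32.3 CPM in replicates 3 to 6, a difference of 3.14. Col4a1, a basement membrane collagen, had a slope of -1.95 (standard error 0.283, adjusted p = 0.171 from edgeR) and was at 702 and 665 CPM in replicates 1 and 2 and 66.8, 270.4, 91.9 and 274 CPM in replicates 3 to 6. Xist was among these 5 with a slope of -2.88 (standard error 0.411, adjusted p = 0.171 from edgeR), as its levels above show. Without both normal Nestin high libraries, an alternative added after seeing the data, edgeR again called 0 genes for either sum.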

How the data were processed

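RNA-seq was analysed in 14 libraries of sorted Nes-GFP+ BMSCs, amplified by a Smart-seq2 method without molecular identifiers, so that precision from depth covers counting error only. The authors deposited raw counts per gene symbol: per the labels and the methods, reads were trimmed (Trim Galore 0.4.1), aligned to mm10 (TopHat2 2.1.0) and counted (featureCounts, strand setting not given in the sources used here), and DESeq2 1.14.1 was used for their tests. The table holds 27099 symbols, of which 13 stand on 2 lines. A further 2 columns of per-sample values matched no sample and were not used.

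CPM were computed from column totals. The gene lists and the 2 sets of libraries were chosen with earlier results of these data known; of 428 list genes, 409 were in the table. Named genes were the 4 that define the sets, the 12 with the largest difference in each direction, up to 4 per list, the 6 most like each sum and the 5 with the smallest p in each direction of each fit; some genes that these rules pick are not reported here; others are named as chosen after their values were seen. Slopes were fitted in 8 libraries, with group as a term, by edgeR 4.0.16 (quasi-likelihood test, two-sided, Benjamini-Hochberg over all genes) and, as an alternative, DESeq2 1.42.0, in R 4.3.3; the scripts were tested on simulated data. Replicate numbers only name samples. Gene identifiers and positions are from the GENCODE annotation, matched by symbol for 26015 symbols. Promoters are from RefSeq (GRCm38.p6) and were held for 8762 genes, with 1.28 windows per gene on average. Other scalings, filters, pseudocounts and left-out libraries were tried as alternatives.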

Additional observations from a re-analysis of the deposited data

Results flagged for a closer look

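Of 128 named genes and 26 sums and library values reported over the 6 normal Nestin low libraries, 18 had 1 library far from the other 5. For normally distributed values, the measure used is met by chance in about 1 of 20 independent groups. CPM need not be so distributed, and the genes were named partly for large differences in these libraries and vary together. The 18 can therefore not be read against that rate. Replicate 3 stood apart in 7: the sum of dendritic cell and class II genes (1189 CPM), Cd209a (71.8 CPM), Ctss (472 CPM), Ly86 (123.6 CPM), H2-Aa (98.3 CPM), H2-Ab1 (170.4 CPM) and H2-DMa (101 CPM). These genes belong to antigen-presenting cells, and the list sum in replicate 3 exceeded that of every other normal Nestin low library.

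In replicate 6, genes of platelets and vessels stood apart: Pf4 (50.7 CPM), Itga2b (33.7 CPM), Vwf (25.3 CPM) and Egfl7 (42.4 CPM). In replicate 5 these were Kel (244.6 CPM), Gatm (349.5 CPM) and the cartilage gene Matn1 (52.9 CPM). In the stroma-rich pair, replicate 1 stood apart in Ighg2c (1227 CPM) and Ighv6-6 (365.9 CPM), and replicate 2 in Igkv17-121 (356 CPM) and Igkv12-41 (199.5 CPM). The immunoglobulin variable genes share reads with near copies.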

How the results depend on the processing

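The same 2 libraries had the highest stromal sum under all alternatives tried. Counts of separated genes (775 higher, 884 lower) became 473 and 566 at a mean of at least 20 CPM, 463 and 521 with a pseudocount of 5, and 1393 and 1909 at a difference of at least 1. Leaving out 1 library gave 803 to 1202 higher and 984 to 1816 lower genes, both highest without replicate 2. In alternatives chosen after seeing the data, 1300 and 1453 genes were separated without replicates 3 and 4, and 989 and 1416 without replicates 5 and 6. Of 242 list medians under alternatives, 30 moved by more than the spread between libraries and 12 turned sign, among them the dendritic (0.27) and monocyte (0.77) lists against replicates 5 and 6 alone and the endothelial (0.33) and Schwann cell (0.32) lists against replicates 3 and 4 alone. In the other libraries, DESeq2 called 512 genes rising and 216 falling with the stromal sum, and 389 and 677 with the leukocyte sum, where edgeR called 0; without a filter edgeR called 5 rising with the stromal sum. The cause of these differences was not tested. With the replicate block edgeR called 0 genes for either sum, with 368 and 254 at an unadjusted p under 0.05 for the stromal and 243 and 566 for the leukocyte sum; the numbers only name the samples. Differences of genes with low levels are understated on the log2(CPM + 1) scale, and counting error is the larger for them.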
